A study of Rattus norvegicus with 2 samples.

Results

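Oxidative phosphorylation is carried out by the respiratory chain and ATP synthase of the inner mitochondrial membrane. Nuclear genes for subunits of these complexes were followed in cultured rat microglia after oxygen-glucose deprivation (OGD), in which cells are kept without oxygen and glucose to model ischaemia. The rule for the members uses gene symbols and no measured value, although it was set with earlier results of these data known: Ndufa, Ndufb, Ndufc, Ndufs or Ndufv followed by a number, Sdha to Sdhd, and symbols starting with Uqcr, with Cox4 to Cox8, or with Atp5. This gave 88 of 31099 probe sets, for 79 of 14217 genes, of which 35 fell to complex I, 4 to complex II, 7 to complex III, 17 to complex IV and 16 to complex V. The groups were microglia of Sprague Dawley rats after 3 h of OGD (1 array) and resting microglia of the same strain with no exposure (1 array), both grown in DMEM with FCS. How the cells were obtained, from how many animals, and whether they were a cell line is not stated in the labels.

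With 1 array per group nothing could be tested between the conditions, and every difference given here describes these arrays only. The authors' values are linear intensities of a probe set, which depend on the probes as well as on the transcript, so levels are compared between the arrays and not between genes. Each gene is represented by its brightest probe set, and a difference is log2 OGD minus log2 resting, so a negative value means lower after OGD. A gene was counted as measured when it lay above the floor, the median probe set of the array (19.7 on the OGD array and 19.6 on the resting array), on at least 1 of them. Of the 79 genes 74 were measured, 72 of them on both arrays.

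Complex I takes electrons from NADH and complex II takes them from succinate, and both pass them to ubiquinone. Complex III hands them on to cytochrome c and complex IV to oxygen, while protons are pumped by complexes I, III and IV, and complex V, the ATP synthase, uses the proton gradient to make ATP. Most subunits are encoded in the nucleus and imported, and the mitochondrial genome encodes the rest, which were not analysed here. Promoters of the nuclear subunit genes are known as targets of the factors NRF1, GABP (of the ETS family) and YY1, and under hypoxia HIF-1 is known to favour Cox4i2 over Cox4i1 and to induce Ndufa4l2.

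The promoter sequences of 10 members are shown because they carry the motifs of these factors near the transcription start and span the range of differences, from genes lower after OGD at the top to genes higher at the bottom. They were picked after the differences and the motifs had been seen. Each runs 5′ to 3′ from 70 bases before the annotated start to 30 bases after it, in RefSeq's GRCr8 build. Capitals mark matches, on either strand, to the NRF1 core TGCGCA, the ETS motif CCGGAAG, the YY1 core AAGATGG, the hypoxia response element core ACGTG and the CCAAT box.
Ndufb10 (chr10:14255937-14256036, minus strand): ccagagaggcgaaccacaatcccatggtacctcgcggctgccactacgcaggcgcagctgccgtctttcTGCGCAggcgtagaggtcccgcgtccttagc
Ndufb8 (chr1:253362907-253363006, minus strand): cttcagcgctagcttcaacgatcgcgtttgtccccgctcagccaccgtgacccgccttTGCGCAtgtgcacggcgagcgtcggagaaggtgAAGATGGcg
Ndufs7 (chr7:10110469-10110568, minus strand): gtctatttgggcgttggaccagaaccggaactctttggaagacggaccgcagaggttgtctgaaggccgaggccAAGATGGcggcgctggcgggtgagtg
Ndufs4 (chr2:47794885-47794984, minus strand): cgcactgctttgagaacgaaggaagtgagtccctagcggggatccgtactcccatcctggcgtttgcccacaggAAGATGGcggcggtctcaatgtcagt
Atp5po (chr11:44657454-44657553, minus strand): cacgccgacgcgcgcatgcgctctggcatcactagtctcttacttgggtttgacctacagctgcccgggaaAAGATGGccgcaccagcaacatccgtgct
Cox8a (chr1:213833594-213833693, minus strand): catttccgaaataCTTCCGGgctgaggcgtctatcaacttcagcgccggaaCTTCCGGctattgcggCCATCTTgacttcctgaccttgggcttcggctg
Uqcrc1 (chr8:118468153-118468252, plus strand): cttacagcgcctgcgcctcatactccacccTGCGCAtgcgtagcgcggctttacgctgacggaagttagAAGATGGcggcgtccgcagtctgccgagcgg
Sdhc (chr13:86097996-86098095, minus strand): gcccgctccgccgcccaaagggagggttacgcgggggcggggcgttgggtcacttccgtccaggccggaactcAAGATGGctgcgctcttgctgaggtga
Ndufa9 (chr4:161374141-161374240, minus strand): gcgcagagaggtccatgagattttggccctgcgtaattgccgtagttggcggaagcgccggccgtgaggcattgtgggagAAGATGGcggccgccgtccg
Ndufa4l2 (chr7:65242099-65242198, plus strand): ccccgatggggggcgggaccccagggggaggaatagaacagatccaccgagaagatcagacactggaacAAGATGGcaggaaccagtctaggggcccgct

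Subunit transcripts were mostly a little lower on the OGD array. Of the 74 measured genes 60 were lower, 12 were higher and 2 had equal values, and the median difference was -0.072 (4.86% lower). Over all 9580 measured genes 51.3% were lower, 42.8% were higher and 5.86% were equal, and the median was -0.0076. None of the 74 reached the 1.5-fold named in the series' design text, which 0.115% of all measured genes did in either direction (0.0731% higher and 0.0418% lower). By 1.1-fold or more 23 members were lower (31.1%, against 18.2% of all measured genes) and 1 was higher (1.35%, against 14.2%); 32.5% of all measured genes passed this fold in either direction. After removal of the trend on brightness by loess 17 members were lower by that fold (23.0%, against 16.4%), and after quantile normalization 19 (25.7%, against 16.6%). By 1.2-fold or more 1 member was lower, against 3.97% of all measured genes, and 1 was higher, against 3.56% (7.53% in either direction); under loess or quantile scaling no member was lower by 1.2-fold. A lower intensity in such cultures cannot tell less transcript per cell from fewer cells that carry it.

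**Figure D1:**
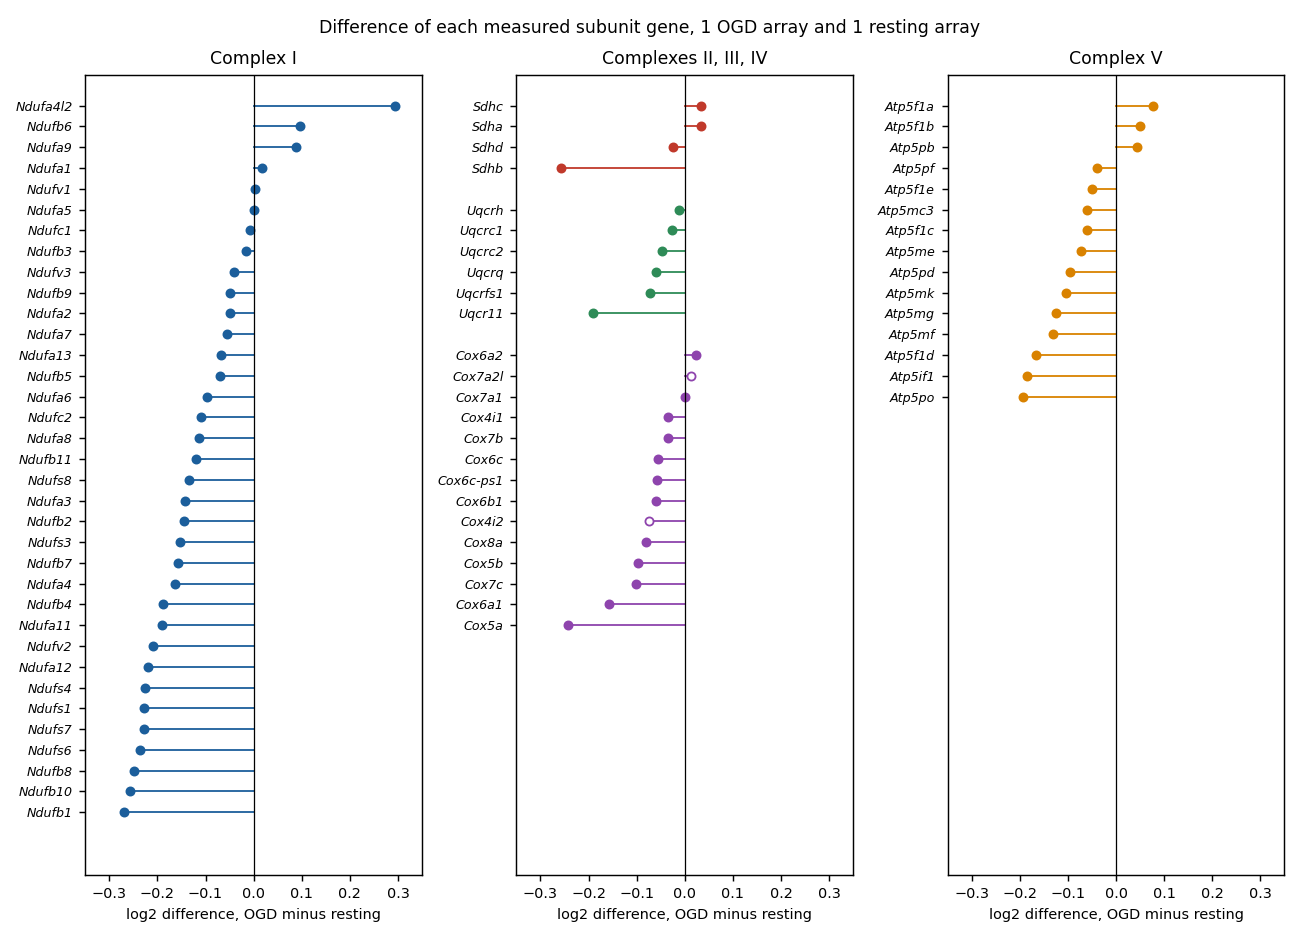
Difference of each measured subunit gene between the arrays, as log2 OGD minus log2 resting on the horizontal axis, with 1 row per gene and a panel for complex I, for complexes II to IV and for complex V. Open circles are the 2 genes that only 1 array measured above the floor; most rows lie left of 0, and Ndufa4l2 is the farthest to the right at 0.29.

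Probe sets of the same gene give the only measure of error in these data. Over 1902 genes with several measured probe sets, their differences varied with an SD of 0.15, and for probe sets with an intensity of 100 or more the SD was 0.10 over 275 genes. This spread covers probe noise and neither labelling nor the variation between cultures. Of the 74 members 21 were lower and 1 was higher by more than 0.15 in the values as deposited. Of all measured genes 16.8% were lower by that much, and the share higher by that much was not counted.

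Complex I held most of the larger differences. After OGD 29 of its 35 genes were lower, 5 were higher and 1 was equal, with a median of -0.12, and 16 were lower by 1.1-fold or more (45.7%), against 11 under loess and 12 under quantile scaling. Among the 39 measured genes of complexes II to V the median was -0.060, with 31 lower and 7 lower by 1.1-fold or more, a share of 17.9% that is near the 18.2% of all measured genes. The contrast between complex I and the other complexes was not tested.

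The catalytic core of complex I carries the flavin and the iron-sulfur clusters. Ndufs1, which holds iron-sulfur clusters of the peripheral arm, had an intensity of 65.0 on the OGD array and 76.1 on the resting array (log2 difference -0.23). Ndufs7, which holds the terminal iron-sulfur cluster before ubiquinone, had 647 after OGD and 757 at rest (-0.23). Ndufv2, an iron-sulfur protein beside the flavin site, had 149 after OGD and 172 at rest (-0.21). These 3 had the most negative differences of the 6 core genes, at intensities that were far apart. Taking the most negative together makes similar proportions likely, so their likeness is no separate result. Ndufs3 (-0.15) and Ndufs8 (-0.13) were also lower. Ndufv1, the subunit that binds NADH and the flavin, differed from the other core members, at 802 after OGD and 800.4 at rest. Over the 6 core genes the median was -0.18, with 5 of 6 lower.

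Accessory subunits surround the core and are needed for assembly and stability. The Ndufb group, in the membrane arm, had a median of -0.14, with 10 of 11 genes lower; Ndufb3 (-0.015) turned positive under loess (0.012) and quantile scaling (0.020). Ndufb1 had the most negative difference of all members in the values as deposited, at 179 on the OGD array against 216 on the resting array, which is 1.21-fold lower. Under loess it had -0.24 and under quantile scaling -0.23, and Ndufb8 was then the most negative member, at -0.25 and -0.24. Ndufb10 had 729.9 after OGD and 872 at rest (1.19-fold lower), and the printed promoter carries an NRF1 core that begins 1 base before the start. Ndufb8, often used as a protein marker of complex I, had 44.5 after OGD and 52.9 at rest (1.19-fold lower). Ndufb6 was the 1 gene of the group that was higher, at 22.3 after OGD and 20.8 at rest, close to the floor.

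The Ndufa group was more mixed, with 8 of 11 genes lower, 2 higher and 1 equal and a median of -0.068. Ndufa12, an accessory subunit of the peripheral arm, had 187 after OGD and 218 at rest (-0.22). Ndufa9, which lies near the ubiquinone site, went the other way with 314 after OGD and 295 at rest (0.088). Ndufa1, a small membrane arm subunit, had 3444 after OGD and 3405 at rest (0.017). Ndufa5 read 24.4 on each array, and exactly equal values, in 5.86% of all measured genes, have no stated reason, so they may not show an unchanged level. All 5 remaining accessory genes were lower, among them Ndufs4 with 349 after OGD and 408 at rest (-0.23) and Ndufs6 with 57.5 after OGD and 67.8 at rest (-0.24). Both encode subunits of the peripheral arm, in which human mutations cause complex I deficiency. In the same group Ndufc1 (-0.0067) and Ndufv3 (-0.041, and -0.0027 under quantile scaling) lay nearer 0. A dimmer probe set of Ndufv3, above the floor on the OGD array only, was higher (0.032).

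Ndufa4 and Ndufa4l2 carry complex I symbols, but Ndufa4 is now regarded as a subunit of complex IV and Ndufa4l2 as its hypoxia-induced paralog. Ndufa4 had 646 on the OGD array and 723 on the resting array (-0.16). Ndufa4l2 had 36.2 after OGD and 29.5 at rest, which is 1.22-fold higher and the most positive difference among the members. Its intensity was near the floor, where single genes vary most: among measured genes under an intensity of 100 the SD of the differences was 0.16, against 0.11 at 500 or more. The hypoxia response element core was not found in the promoter window of Ndufa4l2, from 250 bases before the start to 50 after it. Most windows lack it, as 25.4% of members and 25.4% of measured genes had a match. Sequence outside the window was not searched.

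The genes of complex II, which is also the succinate dehydrogenase of the citric acid cycle, were split, with 2 higher, 2 lower and a median of 0.0041. Sdhb, the iron-sulfur subunit, had 455 on the OGD array and 544 on the resting array (log2 difference -0.26). Sdha, the flavoprotein that oxidises succinate, had 209 after OGD and 204 at rest (0.033). The membrane anchors Sdhc (0.034) and Sdhd (-0.025) also lay near 0, Sdhd turning positive under loess (0.0044) and quantile scaling (0.00087), and a dimmer probe set of Sdhd had 0.028. Sdhb alone of the 4 genes thus stood away from 0 by more than the spread between probe sets.

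In complex III the 6 measured genes were lower, with a median of -0.053, and under loess 5 of 6 were, with Uqcrc1 at 0.0089. Uqcrc1, a core protein of the complex, had 1113 on the OGD array and 1134 on the resting array (-0.026). Uqcrfs1, the Rieske iron-sulfur protein, had 286 after OGD and 300.2 at rest (-0.071). The largest difference was that of the small subunit Uqcr11, with 29.1 after OGD and 33.2 at rest (-0.19), and it was the only one of the 6 past 1.1-fold. Uqcrh lay just above the floor at 20.1 after OGD and 20.3 at rest, and Uqcr10 lay under it on both arrays.

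Complex IV, cytochrome c oxidase, is the site where oxygen is used. Its 9 general subunit genes were lower on the OGD array, with a median of -0.081, except that Cox4i1 had 0.00047 under loess. Cox5a had 287 after OGD and 339 at rest (1.18-fold lower), and Cox6a1 had 47.7 after OGD and 53.2 at rest (1.12-fold lower). The difference of Cox5a was smaller in a brighter probe set that the annotation gives to Cox5a together with another locus, which had 8068 after OGD and 8271 at rest (-0.036). The others lay between -0.10 and -0.034. Cox4i1, the general form of the subunit through which ATP inhibits the enzyme, had 2221 after OGD and 2274 at rest (-0.034). Cox8a had 3944 after OGD and 4172 at rest (-0.081).

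Among the tissue-restricted isoforms of complex IV 3 of 6 were measured, 1 lower, 1 higher and 1 equal. Cox4i2, the lung and hypoxia isoform in mammals, lay at the floor, at 19.2 after OGD and 20.7 at rest, and was at least 1.05-fold lower on the OGD array. Cox6a2, the heart and muscle isoform, had 51.4 after OGD and 50.5 at rest (0.024). Cox7a1, another muscle isoform, read 101.6 on each array. The muscle isoform Cox8b and the testis isoforms Cox6b2 and Cox7b2 lay under the floor on both arrays, and of 6 striated muscle markers 1, Ckm, was measured (26.2 after OGD and 25.2 at rest). Cox7a2l, a factor that joins complexes III and IV, was above the floor on the OGD array only. It was 1.009-fold higher there with the resting value set to the floor. The pseudogene Cox6c-ps1 had a difference of -0.058, close to that of Cox6c (-0.055), and probes may not tell them apart.

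In complex V, 12 of 15 measured genes were lower, with a median of -0.072. The catalytic part went the other way in its main subunits. Atp5f1a, the alpha subunit, had 583 on the OGD array and 553 on the resting array (0.076), and Atp5f1b, the catalytic beta subunit, had 3995 after OGD and 3861 at rest (0.049). The remaining F1 genes were lower, with Atp5f1d, the delta subunit, at 628 after OGD and 705 at rest (-0.17), Atp5f1c at -0.060 (0.0056 under quantile scaling) and Atp5f1e at -0.050. Both positive differences were under the spread between probe sets.

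The stalk and membrane parts of the synthase were mostly lower. Atp5po, the peripheral stalk subunit that confers oligomycin sensitivity, had 402 on the OGD array and 459.7 on the resting array (-0.19), and Atp5pb, of the same stalk, had 1998 after OGD and 1938 at rest (0.044). All 4 measured small membrane subunits, Atp5mf, Atp5mg, Atp5mk and Atp5me, were lower, with a range of -0.13 to -0.072. Atp5me was the only one of them with a further probe set above the floor, which had -0.052. Atp5mc3, 1 of the genes for the proton-carrying c ring, had 9539 after OGD and 9943 at rest (-0.060). Atp5if1, the inhibitor that stops the synthase from burning ATP when respiration fails, had 180.3 after OGD and 205 at rest (-0.19).

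Bright probe sets were lower on the OGD array more often than dim ones over all measured genes, so the members were also compared by brightness. Among measured genes with an intensity of 100 to 500, 22 of 25 members were lower with a median of -0.13, against 60.0% and -0.034 of all genes in that range. At 500 or more 24 of 29 members were lower (median -0.072), against 64.4% and -0.035. Under 100 the figures were 14 of 20 and -0.054 for the members, against 47.1% and 0 for all genes. In each range the members were lower more often than all genes of that range. When the trend on brightness was removed by loess, 57 of 74 members were lower with a median of -0.054, and all measured genes had 51.2% lower and -0.0028.

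**Figure D2:**
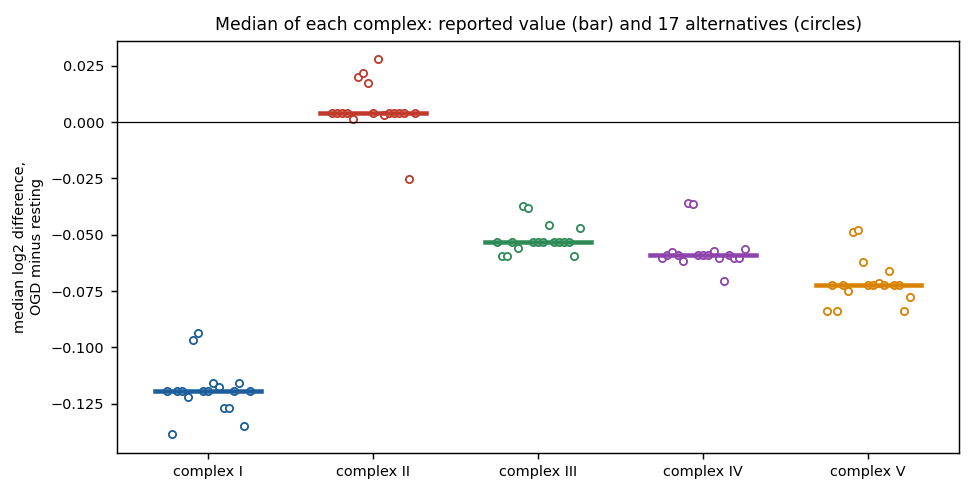
Median log2 difference (OGD minus resting) of each complex on the vertical axis, with the reported value as a bar and 17 alternative settings of the processing as circles. The circles of complexes I, III, IV and V lie under 0, and those of complex II lie on both sides of 0.

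**Figure D3:**
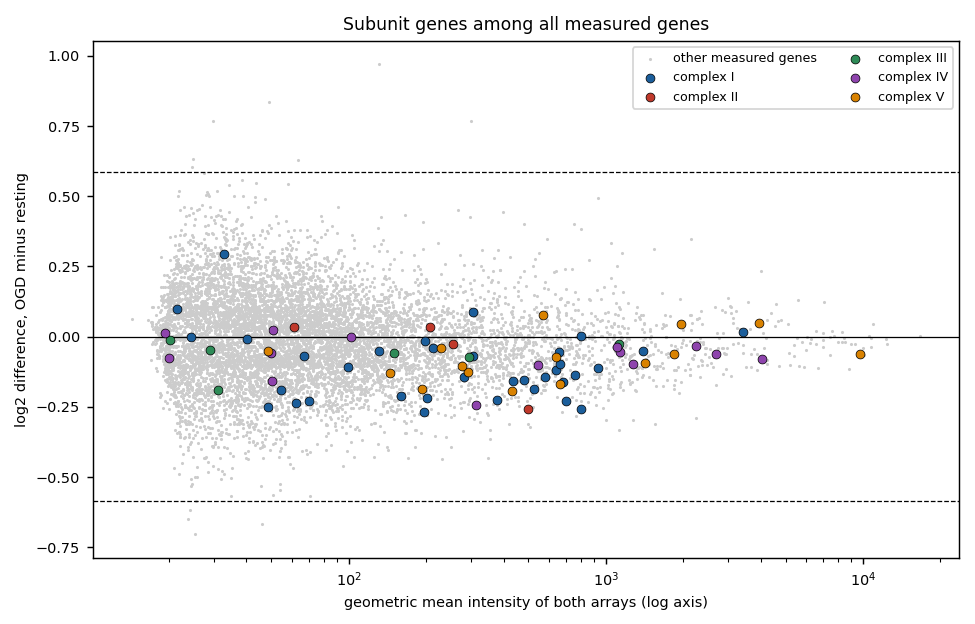
Difference (log2 OGD minus log2 resting) of each measured gene against its geometric mean intensity over both arrays on a log axis, with subunit genes coloured by complex and other genes in grey. Dashed lines mark 1.5-fold, which none of the coloured points reach.

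**Figure D4:**
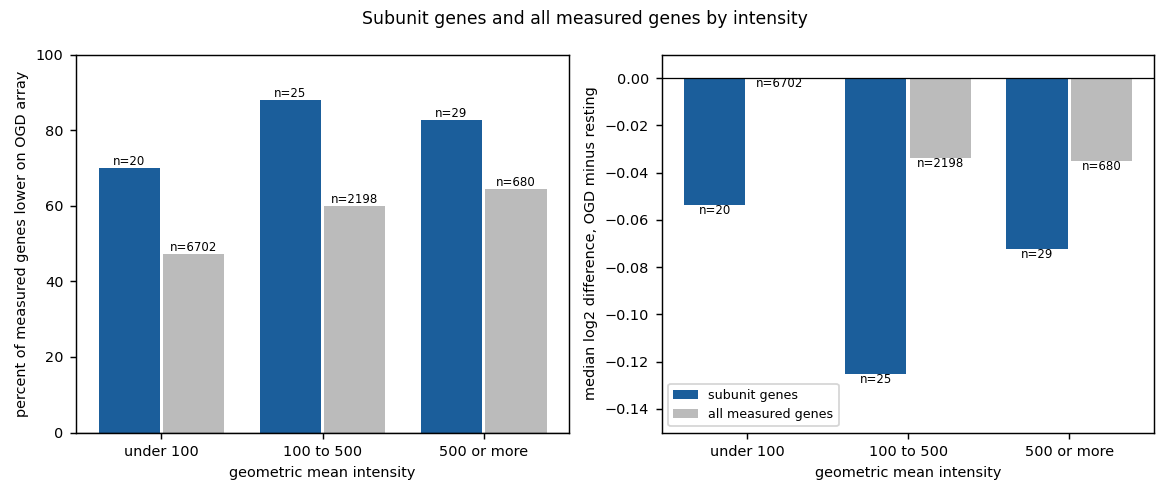
Percent of genes lower on the OGD array (left) and median log2 difference, OGD minus resting (right), for subunit genes and all measured genes in 3 ranges of intensity, with the number of genes at each bar. The bars of the subunit genes lie beyond those of all genes in each range, most at 100 to 500 with 88% against 60.0%.

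Other genes of the pathway were described from lists. After OGD 18 of 28 measured assembly factors were lower (64.3%, against 51.3% of all measured genes) and 8 were higher, with a median of -0.037. They spread more widely than the subunits (SD 0.17 against 0.10 for the members), but their probe sets were dimmer (median 86.9 against 302 at rest). The SD was 0.15 over all measured genes and 0.16 over those under an intensity of 100. Ndufaf5, which modifies a complex I core subunit, had 158 after OGD and 207 at rest (1.31-fold lower). Atpaf1, which assembles F1, had 82.4 after OGD and 66.4 at rest (1.24-fold higher). A list of related genes outside the symbol rule had a median of -0.096 with 11 of 14 lower, among them Higd2a, a small complex IV partner (-0.20). It holds few subunits and also includes Etf genes of electron transfer and Coq genes of ubiquinone synthesis. Its subunit genes Cyc1 and Ndufab1 had -0.016 and -0.17. Genes for mitochondrial protein import and cristae had -0.047 with 11 of 12 lower. For this list and the one outside the symbol rule, the share lower over all measured genes was 51.3%. It ranged from 47.1% under an intensity of 100 to 64.4% at 500 or more. The median was 0 over 13 nuclear regulators, where Esrra, a nuclear receptor that drives these genes, had 93.2 after OGD and 78.2 at rest (1.19-fold higher). ATP export carriers and outer membrane channels had 0.0059 over 6 genes, with Vdac2, an outer membrane channel, at 0.13. HIF-linked mitochondrial genes had -0.038 over 9 genes, 3 of them higher, where 42.8% of all measured genes were. This list is not separate from the members: it includes Cox4i2 and Ndufa4l2, and Ndufa4l2 is among those higher. It also shares Higd1a with the list outside the symbol rule.

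Transcripts of the mitochondrial ribosome, which makes the subunits encoded in the organelle, were much like the complex I genes, with 61 of 71 lower and a median of -0.12. Cytosolic ribosomal proteins had 34 of 42 lower and a smaller median of -0.035, where all measured genes had 51.3% lower and -0.0076. No test could set the subunit genes apart from these groups. The 12 microglial markers were all measured and all 12 were lower, against 51.3% of all measured genes, with a median of -0.098. Their summed intensity was 1315 on the OGD array and 1379 on the resting array. Most of that sum came from Trem2 and Cd68. Of other cells' markers 2 of 6 astrocyte, 1 of 6 neuron, 2 of 6 oligodendrocyte, 1 of 6 fibroblast and 1 of 6 endothelial genes were measured. Gfap and Slc1a2, of astrocytes, were both 1.35-fold higher after OGD, and Aqp4, Slc1a3, Aldh1l1 and S100b were under the floor. Of these Syn1, of neurons (0.24), Mbp, of oligodendrocytes (0.23), Col1a1, of fibroblasts (0.21), and Vwf, of endothelium (0.28), were higher after OGD, and Sox10, of oligodendrocytes, was lower (-0.076). The following sums run over all probe sets of a list, those under the floor included, with 5 of 6 genes represented for oligodendrocytes and endothelium. Summed intensities of the markers on the OGD array were 115 for astrocytes, 114 for neurons, 109.6 for oligodendrocytes, 103 for fibroblasts, 92.6 for endothelium and 71.3 for striated muscle. On the resting array they were 95.5 for astrocytes, 104 for neurons, 107 for oligodendrocytes, 94.6 for fibroblasts, 79.8 for endothelium and 74.1 for striated muscle. Most markers in these sums lay under the floor and the others not far above it. The sums also add different probes, so they give no amount of any cell type. The part of the makeup of the cultures in the subunit values was not tested.

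The members also shared features that the rule did not use. Their genes were short, with a median span of 7.17 kb against 21.9 kb for all measured genes. Of members under 10 kb 44 of 52 were lower, with a median of -0.096, against 55.5% and -0.028 for all measured genes under 10 kb. Of longer members 16 of 22 were lower (-0.057), against 49.6% and 0 for all longer genes. Across the 74 members Spearman's rho between span and difference was 0.062, a description over genes that share both arrays.

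Promoter windows of 300 bases were held for 71 of the 79 genes. The YY1 core was found in 26.8% of them, against 8.77% of the windows of 7994 measured genes and 7.30% of all 27457 windows. The NRF1 core was in 26.8%, against 13.1% and 7.68%, and the ETS motif in 28.2%, against 17.2% and 9.22%. The hypoxia response element core, in 25.4% of members, and the CCAAT box, in 35.2%, were about as frequent in windows of all measured genes, at 25.4% and 37.4%. Median GC content was 56% in windows of members, 61% in those of measured genes and 52.3% in all windows.

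In 9 of the 10 promoters shown above, the YY1 core begins between 3 bases before the start of transcription and position 22 after it. In Ndufs7 and Ndufs4 its leftmost base is at position 5. The 10 were picked for motifs near the start, so this count follows from the choice. Between 20 bases before and 40 after the start 16 of 71 members had a match (22.5%), against 4.62% of measured genes. This interval was chosen after the positions were seen. The core holds the letters ATG, and whether a match is a start codon was not examined. In Cox8a the match lies on the opposite strand. Differences of members with and without each motif were set side by side without a test. With the YY1 core the median was -0.081 (16 of 19 measured members lower) and without it -0.068 (36 of 47). With the NRF1 core it was -0.079 (12 of 18) and without it -0.071 (40 of 48), so the median and the count lean opposite ways. With the ETS motif it was -0.070 (18 of 20) and without it -0.071 (34 of 46). With the hypoxia response element core it was -0.059 (13 of 17) and without it -0.097 (39 of 49), and with the CCAAT box it was -0.060 (19 of 23) and without it -0.071 (33 of 43). Among the printed promoters, Ndufb8 (-0.25) and Ndufa4l2 (0.29) both carry the YY1 core.

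**Figure D5:**
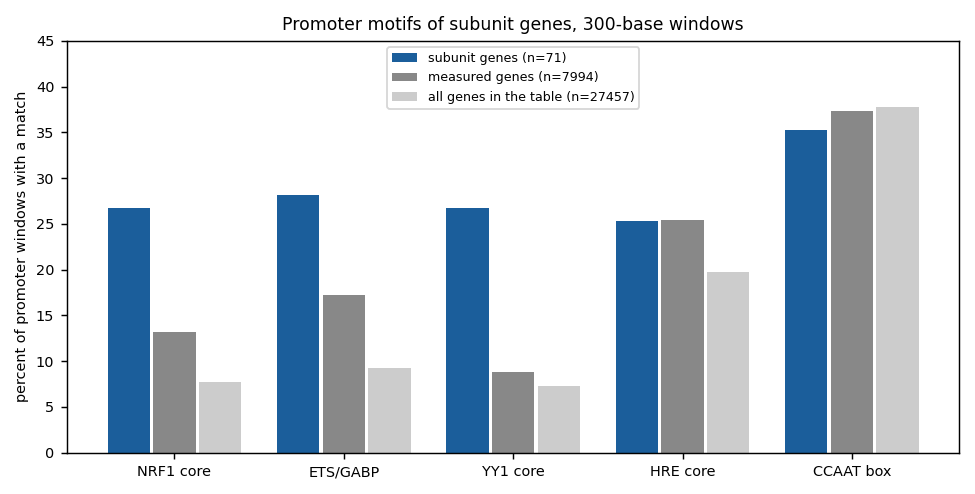
Percent of 300-base promoter windows with at least 1 match to each of 5 motifs, on either strand, for subunit genes, measured genes and all genes of the RefSeq table. YY1 cores, NRF1 cores and ETS motifs are in more subunit windows (26.8% to 28.2%) than measured-gene windows (8.77% to 17.2%).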

How the data were processed

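Total RNA for 1 OGD array and 1 resting array was labelled with biotin after oligo(dT) priming, per the labels' protocols. The deposited values are intensities on a linear scale, 1 per probe set; how the authors corrected background, summarised and scaled them, and any genome build, is not given in the sources used here. Precision is limited by the number of arrays.

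Of 31099 probe sets 57 controls were set aside. Genes came from the platform annotation, and 20826 probe sets naming 1 gene were used (436 named several and 9780 were unnamed). The rule for the members was applied to the annotation's symbols. Genes were named and grouped by the symbol of their Entrez ID in RefSeq's GRCr8 table, which held all 79 members, or else by the annotation's. The alternative with updated symbols gave the same counts and medians, so it adds little. Values under an array's median were set to it before log2 was taken, and each gene had its brightest probe set. No test was possible. Calculations (Python 3.11.15, pandas 2.3.3, statsmodels 0.14.6) were tested on simulated data. Members that differed most in each complex, isoform pairs and genes near the floor were named; of the pathway lists, up to 3 genes by difference. The members and lists were chosen with earlier results of these data known, and the role groups, intensity ranges, 10 kb edge and YY1 interval after these values were seen. Where a gene has several promoter windows, the topmost in the table was used.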

Additional observations from a re-analysis of the deposited data

How the results depend on the processing

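Over 17 alternatives (other floors, scalings, probe set choices, a pseudocount, other member lists, and subsets by intensity or equal values), the median over the subunit genes ranged from -0.088 to -0.051. The share lower was smallest with loess (57 of 74, 77.0%) and largest without isoforms, inhibitors and paralogs (58 of 68, 85.3%); 46 of 54 were lower at intensities of 100 or more and 64 of 79 with no floor. The medians ranged from -0.14 to -0.094 for complex I, -0.025 to 0.028 for complex II, -0.059 to -0.037 for complex III, -0.071 to -0.036 for complex IV and -0.084 to -0.048 for complex V. With intensities of 100 or more only, chosen after seeing the data, the complex II median was -0.025, 7 genes were higher and 1 was equal, of the 54 genes this leaves. With loess 17 genes were higher and with quantile normalization 16, against 12 as reported. The number of equal genes was 1 with a floor at the 70th percentile or without isoforms, inhibitors and paralogs, and 0 with median centring, quantile normalization, loess, a pseudocount or equal values left out. At 1.2-fold 2 genes passed and at 1.1-fold 24. Over all genes, 11 passed 1.5-fold in the reported setting, 37 with a floor at the 30th percentile, 4 at the 70th, 58 with no floor, 20 over probe sets, 5 with the pseudocount and 2 at intensities of 100 or more. Medians that moved by over 1.5 times, a limit chosen after seeing the data, were that of complex II (0.0015 with median centring, 0.020 with quantile normalization, 0.022 with loess, 0.017 with the mean over probe sets and 0.028 over all probe sets), that of complex IV (-0.036 with quantile normalization and with loess) and that of complex V (-0.048 with loess). The cause was not tested. Genes near the floor are limited by signal over background. No paired analysis was possible because each group has 1 array, and no array could be left out.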

Other observations

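Of 7 probe sets that the annotation gives to several genes, among them a subunit gene, 5 were above the floor and 4 of those were lower on the OGD array. The set of Atp5mc1 and Atp5mc1l1, c ring genes of the ATP synthase, had an intensity of 2675 on the OGD array and 3065 on the resting array (log2 difference -0.20). That of Atp5mc2 and Atp5mc2l1 had 761 after OGD and 807 at rest (-0.083), and that of Cox7a2 and Cox7a2l2 had 204 after OGD and 215 at rest (-0.076). The set of Ndufs5 and its pseudogene had 70.8 after OGD and 69.5 at rest (0.027).

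In 6 subunit genes (Atp5me, Cox6a1, Cox7c, Ndufa9, Ndufb2 and Uqcrfs1) the values of both arrays shared 1 decimal part on a grid of 0.5 units, which is 8.11% of measured members, against 6.01% of all measured genes. Without such probe sets the median over the subunit genes was -0.069, with 55 of 68 lower.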
